A study of Danio rerio with 10 samples.

Results

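The genes described here are 8 zebrafish genes of the germ line, *ddx4*, *nanos3*, *dnd1*, *piwil1*, *dazl*, *ca15b*, *buc* and *zar1*, measured in sorted somite progenitors. Each was matched by its RefSeq accession to exactly 1 of the 14720 transcript records in the count table, and 6 of the 8 were abundant enough to be tested among 6570 records. The spt_cMO cells came from AB embryos injected early with caged fluorescein-dextran, a tracer, plus a morpholino directed at *spadetail* that stays inactive until light releases it. *Spadetail* is the older name of the T-box gene *tbx16*. The control cells came from AB embryos injected with the same tracer and no morpholino, so an effect of *spadetail* and other effects of a morpholino cannot be told apart. In both groups light of 360 nm through a 100 µm diaphragm uncaged the ventral somite progenitors 6 hours post-fertilization (hpf). The fluorescent cells were recovered by sorting at 9 hpf, during late gastrulation. Each group held 5 libraries, which the labels number 1 to 5 and call biological replicates.

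In the zebrafish egg, RNAs and proteins of the germ line are gathered into germ plasm, which is inherited by the few cells that become primordial germ cells. Maternal germ plasm RNAs are cleared from somatic cells by factors that include the microRNA miR-430, while they persist in the germ cells, where Dnd1 is known to shield *nanos3* RNA from that microRNA. During gastrulation the germ cells migrate among mesodermal and endodermal cells, so their transcripts can enter a sort for another tissue. The RNA was read by CEL-seq, which sequences tags from the 3′ ends of transcripts, and the counts used here are of reads.

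Libraries held between 2036973 and 9374914 read counts, and 3 counts, used here as the floor, made up between 0.318 and 1.47 CPM (counts scaled to library size with TMM factors). Library spt_cMO replicate 2, the shallowest, stood apart on the first principal component of all tested records, with a score of -0.83, while the other 9 lay between -0.17 and 0.34. The label of the cells was checked against 14 presomitic and paraxial mesoderm genes, whose summed level was 3054 to 4642 CPM in spt_cMO and 6794 to 8901 CPM in control. That list is led by *msgn1*, and edgeR called 6 of its 12 tested genes, all lower in spt_cMO. Over all 6570 tested records, 0.974% were called lower in spt_cMO. The list also holds *tbx16*, the gene the morpholino is directed at, which averaged 526 CPM in spt_cMO and 386 CPM in control. Its log2 fold change of 0.45 did not pass (adjusted p = 0.0897, edgeR's quasi-likelihood test). The 8 yolk syncytial layer records summed to between 1.57 and 9.30 CPM in spt_cMO and between 3.78 and 9.39 CPM in control, and none was abundant enough to test. Summed levels of epidermis and enveloping layer genes were 364 to 660 CPM in spt_cMO and 264 to 493 CPM in control, those of endoderm 246 to 318 and 240 to 331 CPM in the same order, and those of neural ectoderm 439 to 589 and 398 to 591 CPM. Notochord and axial mesoderm genes summed to 442 to 538 CPM in spt_cMO and 339 to 399.7 CPM in control. Most of that sum was the single gene *tbxta*, which averaged 439 CPM in spt_cMO and 338 CPM in control. Of these lists edgeR called 2 of 4 tested notochord genes (*tbxta* and *shha*) and 1 of 9 neural genes (*sox2*), all higher in spt_cMO. It called none in the epidermis and endoderm lists. Over all tested records, 0.807% were called higher in spt_cMO. The genes *tbxta*, *shha*, *sox2*, *msgn1* and *tbx16* were named after their values were seen. Any part of these cell types in the results below was not tested.

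All 8 germ line transcripts had counts in every library of both groups, at a low level. For *piwil1* and *dazl* these were at or under the floor of 3 counts in 4 of 10 libraries each. The summed level of the 8 genes averaged 68.6 CPM ± 15.8 in spt_cMO and 88.5 CPM ± 14.1 in control (SD, n = 5 each). The spt_cMO libraries 1 to 5 summed to 88.9, 62.1, 72.3, 73.6 and 46.3 CPM, from 838, 127, 196, 282 and 115 counts. The control libraries 1 to 5 summed to 87.2, 92.5, 95.98, 101.7 and 65.2 CPM, from 346, 739, 323, 478 and 471 counts. The groups overlapped, and replicate 5 was the lowest library of each group. The gene with the largest part of the sum differed between libraries. It was *ca15b* in control replicate 3, with 41.5%, and *zar1* in spt_cMO replicate 5, with 27.0%. In bulk RNA, fewer cells of a type and less of its RNA per cell cannot be told apart.

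**Figure D1:**
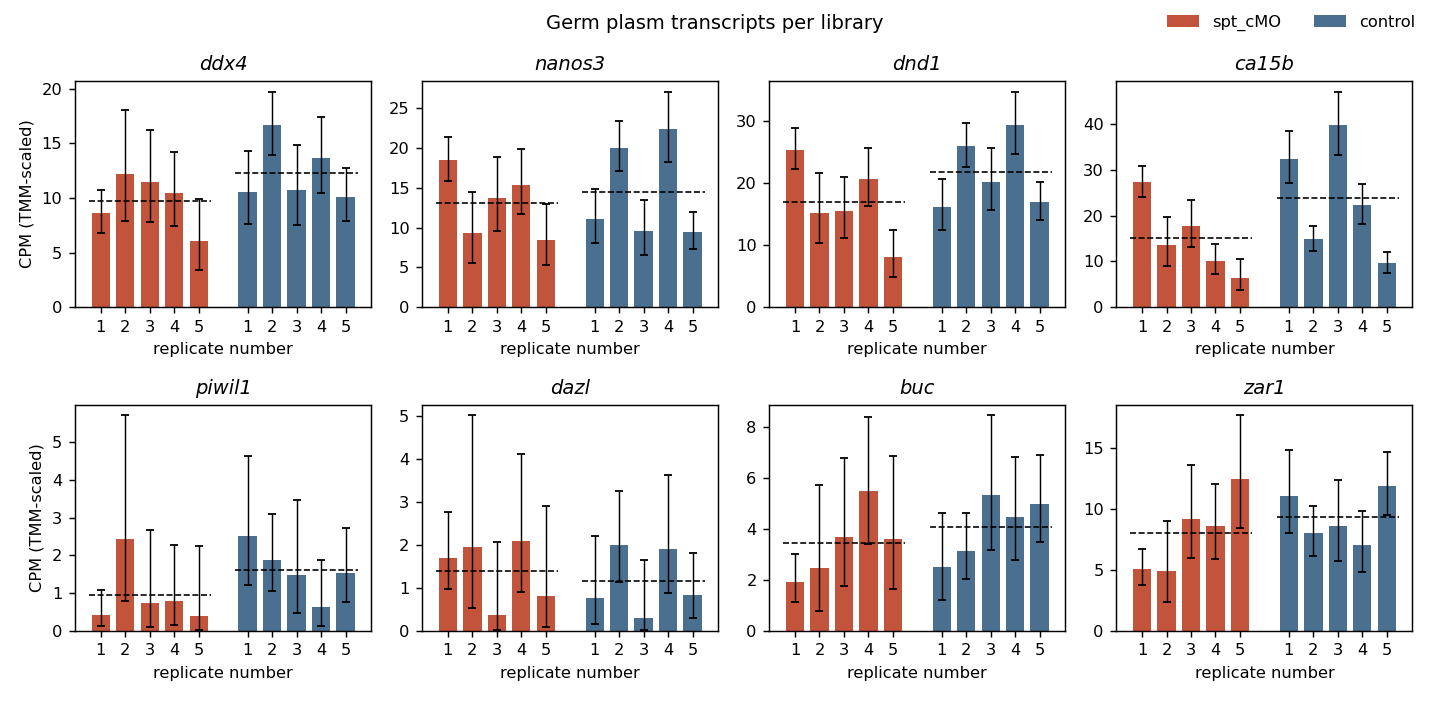
CPM (vertical axis, TMM-scaled, linear from 0) of each of the 8 genes in spt_cMO libraries 1 to 5 and control libraries 1 to 5; bars are single libraries, error bars exact 95% Poisson intervals of the counts, and dashed lines group means. The groups overlapped for every gene, *nanos3* and *dnd1* were high in spt_cMO libraries 1 and 4 and control libraries 2 and 4, and *ca15b* was high in spt_cMO library 1 and control libraries 1 and 3.

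None of the 6 tested genes differed between the groups in edgeR's quasi-likelihood test. At an adjusted p of 0.05, 0 of 6 were called, against 1.78% of all tested records (117 of 6570), of which 0.974% were lower and 0.807% higher in spt_cMO. In edgeR 0 of the 6 had an unadjusted p under 0.05, against 9.44% of all records. DESeq2 also called 0 of the 6, against 2.56% of all records. These tests left the replicate number out, although same-numbered libraries correlated over all tested records (r of 0.119 to 0.251). Blocking on the replicate number, edgeR's quasi-likelihood test called 2.75% of all records and again 0 of the 6. The blocked log2 fold changes were -0.35 for *ddx4*, -0.34 for *dnd1*, -0.27 for *zar1*, -0.25 for *buc* and -0.09 for *nanos3*. Their adjusted p in that test ran from 0.498 for *ddx4* to 0.941 for *nanos3*, and *ca15b* is given below. Without the block, all 6 had a log2 fold change below 0, with a median of -0.29, where 49.7% of all tested records lay below 0 and their median was 0.00. For *nanos3* that sign turned with any 1 of 3 libraries left out. The groups overlapped in all 8 genes, and did not in 3.06% of all tested records.

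Among the genes that act in the germ cells themselves, *nanos3* encodes an RNA-binding translational repressor needed to maintain germ cells. It stood at 18.5, 9.30, 13.7, 15.4 and 8.45 CPM in spt_cMO libraries 1 to 5, against 11.1, 20.03, 9.51, 22.3 and 9.41 CPM in control libraries 1 to 5. In each group a pair of libraries lay above the rest, replicates 1 and 4 in spt_cMO and replicates 2 and 4 in control. The means were 13.1 CPM ± 4.20 and 14.5 CPM ± 6.22 (SD, n = 5 each), with a log2 fold change of -0.10 (SE 0.28, adjusted p = 0.972, edgeR's quasi-likelihood test). It was 0.01 without spt_cMO replicate 5, 0.07 without control replicate 2 and 0.10 without control replicate 4, so no direction can be given.

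The gene *dnd1*, dead end, encodes an RNA-binding protein required for germ cell migration and survival. Its level was 25.4, 15.2, 15.5, 20.6 and 8.04 CPM in spt_cMO libraries 1 to 5, against 16.1, 25.9, 20.2, 29.4 and 16.9 CPM in control libraries 1 to 5. The same 4 libraries were high as for *nanos3*, and spt_cMO replicate 5 was the lowest of all 10. It averaged 16.9 CPM ± 6.50 in spt_cMO and 21.7 CPM ± 5.77 in control (SD, n = 5 each), a log2 fold change of -0.29 (SE 0.25, adjusted p = 0.834, edgeR's quasi-likelihood test). Of the same-numbered libraries, spt_cMO was the lower in 4 of 5 pairs, and in pair 1 it was 1.57 times the control.

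The gene *ddx4*, or vasa, encodes a DEAD-box RNA helicase that is a standard marker of germ cells. It was counted at 8.60, 12.2, 11.4, 10.4 and 6.03 CPM in spt_cMO libraries 1 to 5, against 10.6, 16.6, 10.7, 13.6 and 10.1 CPM in control libraries 1 to 5. All 5 spt_cMO libraries lay below the control mean, although the ranges overlapped. For *dnd1*, *ca15b*, *buc* and *zar1* 4 of 5 did so, and for *nanos3* 3 of 5. By replicate number, *ddx4* was lower in spt_cMO in 4 of 5 pairs, and in pair 3 it was 1.07 times the control. The means were 9.75 CPM ± 2.48 in spt_cMO and 12.3 CPM ± 2.78 in control (SD, n = 5 each). The log2 fold change of -0.37 (SE 0.21) did not pass (adjusted p = 0.651, edgeR's quasi-likelihood test). Without spt_cMO replicate 2, the library that stood apart, it was -0.45 (adjusted p = 0.491, edgeR), and without control replicate 2, its highest library, -0.22 (adjusted p = 0.871).

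The transcript *ca15b*, which encodes a carbonic anhydrase and is enriched in zebrafish germ cells, varied most between libraries for its counts. In spt_cMO libraries 1 to 5 it stood at 27.4, 13.7, 17.7, 10.2 and 6.44 CPM, and in control libraries 1 to 5 at 32.5, 14.9, 39.8, 22.3 and 9.55 CPM. The highest libraries were spt_cMO replicate 1 and control replicates 3 and 1, and replicate 5 was again the lowest of each group. Its variance within the groups was 22.3 times what counting alone would give, against 7.80 times for *nanos3*, 7.57 times for *dnd1*, 3.15 times for *zar1*, 2.44 times for *ddx4* and 1.73 times for *buc*. It averaged 15.1 CPM ± 8.05 in spt_cMO and 23.8 CPM ± 12.4 in control (SD, n = 5 each), and the log2 fold change was -0.52 (SE 0.46, adjusted p = 0.856, edgeR's quasi-likelihood test).

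Compared by replicate number, *ca15b* was lower in spt_cMO in 5 of 5 pairs, which held for 6.04% of all tested records. The spt_cMO library held 0.84, 0.92, 0.44, 0.46 and 0.67 of the level of its same-numbered control, for numbers 1 to 5. Blocked on the number, *ca15b* had a log2 fold change of -0.64 (SE 0.17), which lay just outside the threshold (adjusted p = 0.0527, edgeR's quasi-likelihood test). In the authors' deposited table, which lists 6923 records, 6 of these 8 genes among them, with 3.58% of them under a false discovery rate of 0.05, *ca15b* was the only one of those 6 genes below it, with a log2 fold change of -0.64 and a false discovery rate of 0.0262. The design blocked on the number, fitted here with edgeR's likelihood ratio test, gave -0.65 (adjusted p = 0.0263), and with DESeq2 -0.65 (adjusted p = 0.141). In the blocked quasi-likelihood test without 1 number at a time, the adjusted p ran from 0.0249 without number 2 to 0.295 without number 3, with log2 fold changes of -0.75 and -0.50. These blocked variants of the test were chosen after the data were seen, and whether *ca15b* is called depends on them.

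**Figure D2:**
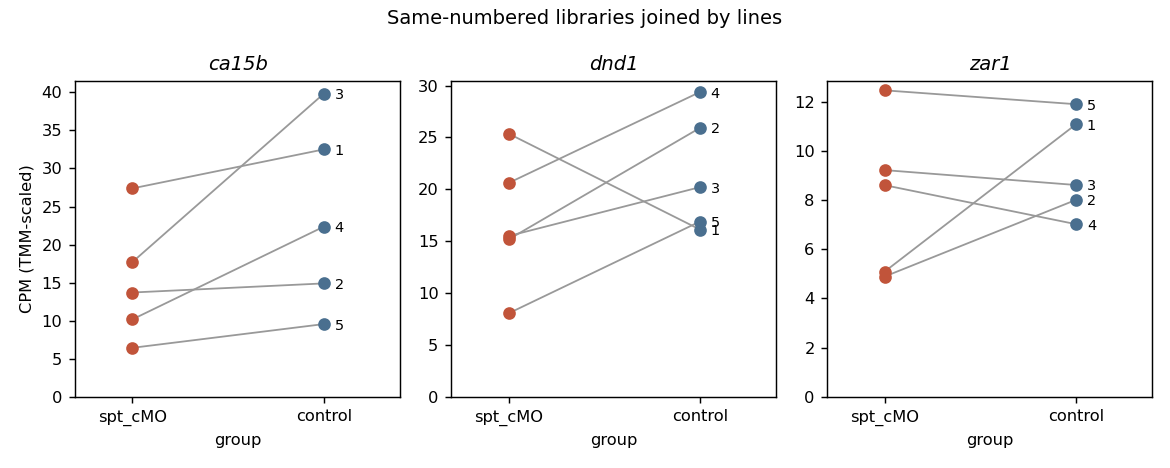
CPM (vertical axis, TMM-scaled, linear from 0) of *ca15b*, *dnd1* and *zar1* in the 5 spt_cMO and 5 control libraries, with lines joining libraries of the same replicate number. For *ca15b* all 5 lines are lower at the spt_cMO end, for *dnd1* 4 of 5 and for *zar1* 2 of 5.

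Both genes too sparse for the test lay near the floor of counting. The gene *piwil1* (ziwi) encodes an Argonaute-family protein of the piRNA pathway, which silences transposons in the germ line, and it had 15 counts over the spt_cMO libraries and 44 over the control libraries. Spt_cMO libraries 1 to 5 held 4, 5, 2, 3 and 1 counts (0.42, 2.45, 0.74, 0.78 and 0.40 CPM), against 10, 15, 5, 3 and 11 counts (2.52, 1.88, 1.49, 0.64 and 1.52 CPM) in control libraries 1 to 5. The level in spt_cMO replicate 2 rests on 5 counts in the shallowest library, with an exact 95% Poisson interval of 0.79 to 5.71 CPM. With no filter on low counts, the log2 fold change of *piwil1* was -1.01 (SE 0.54) and did not pass (adjusted p = 0.66, edgeR's quasi-likelihood test).

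The gene *dazl* encodes an RNA-binding protein that promotes translation in germ cells, and it had 31 counts over the spt_cMO libraries and 35 over the control libraries. Its libraries 1 to 5 held 16, 4, 1, 8 and 2 counts in spt_cMO (1.70, 1.96, 0.37, 2.09 and 0.80 CPM), against 3, 16, 1, 9 and 6 counts (0.76, 2.003, 0.30, 1.92 and 0.83 CPM) in control. In 4 of 10 libraries it had 3 counts or fewer, as *piwil1* did. With no filter its log2 fold change was 0.21 (SE 0.49, adjusted p = 0.96, edgeR's quasi-likelihood test).

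The genes *buc* and *zar1* are best known from the oocyte. The gene *buc*, bucky ball, encodes the protein that organises germ plasm and the Balbiani body of the oocyte, and *zar1* encodes an RNA-binding protein of oocytes and eggs. The level of *buc* was 1.91, 2.45, 3.69, 5.48 and 3.62 CPM in spt_cMO libraries 1 to 5, against 2.52, 3.13, 5.35, 4.47 and 4.98 CPM in control libraries 1 to 5. It averaged 3.43 CPM ± 1.38 in spt_cMO and 4.09 CPM ± 1.22 in control (SD, n = 5 each), and its log2 fold change of -0.29 (SE 0.32) did not pass (adjusted p = 0.896, edgeR's quasi-likelihood test). The 173 counts of *buc* over all libraries, the fewest of the 6 tested genes, put its variance at 1.73 times that of counting. This was the lowest ratio of the 6, but the ratio rises with the count. As a share of the mean, the SD within groups was 34.5% for *buc*. It was 23.9% for *ddx4*, 30.8% for *zar1*, 31.8% for *dnd1*, 38.5% for *nanos3* and 53.8% for *ca15b*.

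For *zar1* the levels were 5.09, 4.89, 9.22, 8.61 and 12.5 CPM in spt_cMO libraries 1 to 5, against 11.1, 8.01, 8.62, 7.02 and 11.9 CPM in control libraries 1 to 5. Here replicate 5 was the highest library of each group, the library in which *dnd1*, *ca15b* and *nanos3* were lowest in both groups or, for *dnd1* in control, next to lowest. The means were 8.06 CPM ± 3.16 in spt_cMO and 9.33 CPM ± 2.08 in control (SD, n = 5 each), with a log2 fold change of -0.26 (SE 0.25, adjusted p = 0.874, edgeR's quasi-likelihood test). It was -0.07 without spt_cMO replicate 1 and -0.45 without spt_cMO replicate 5.

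Whether the genes rose and fell together was read from log2 CPM after the mean of each group was removed. Of the 15 pairs of tested genes 7 had a positive Pearson r, and the median r was -0.10, where the 21579165 pairs of all tested records had a median of 0.00 and 49.9% above 0. With all 8 genes, 13 of 28 pairs were positive. The median r was 0.09 without spt_cMO replicate 1, 0.02 without spt_cMO replicate 2 and 0.03 without control replicate 2, and the count of positive pairs stayed between 6 and 9 of 15 without each library.

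**Figure D3:**
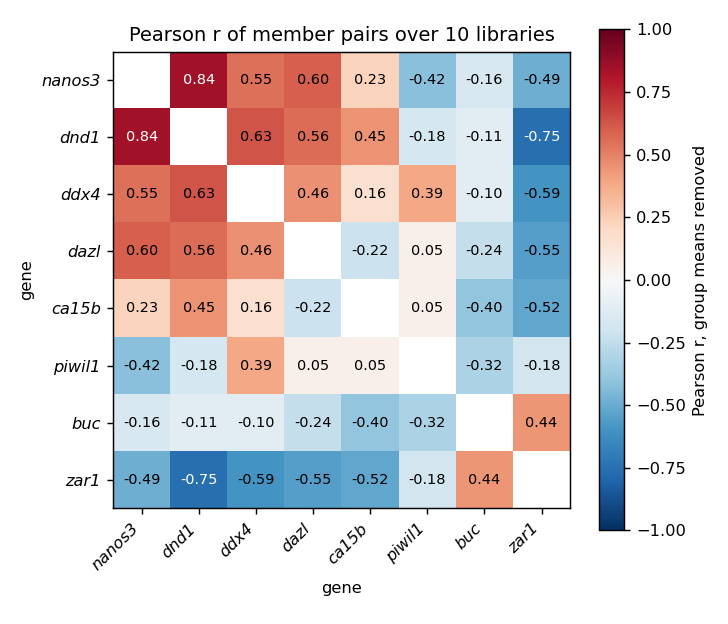
Pearson r between each pair of the 8 genes over 10 libraries, from log2 CPM with the group means removed; red is positive and blue negative. The block of *nanos3*, *dnd1*, *ddx4* and *dazl*, picked out here by its values, is positive in all its cells, from 0.46 to 0.84. None of these cells passed adjustment over all 28 pairs. The sparse *piwil1* is negative with *nanos3* (-0.42) and *dnd1* (-0.18) and positive with *ddx4* (0.39), and *zar1* is negative with every gene except *buc*.

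The closest pair was *nanos3* and *dnd1*, with a Pearson r of 0.84 over 10 libraries (exact permutation within groups, 14400 rearrangements, 2-sided p = 0.00194) and a Spearman rho of 0.87 (exact permutation p = 0.00257). Adjusted over the 15 pairs of tested genes the p was 0.0292 for r and 0.0385 for rho, and over all 28 pairs 0.0544 and 0.0719, outside the threshold. The relation was positive in both groups, and r was 0.83 without control replicates 2 and 4, which lay farthest from the median of *nanos3*. Only 0.357% of all pairs of tested records reached this r. Among 6569 other records *dnd1* ranked 9 in likeness to *nanos3*, and *nanos3* ranked 21 in likeness to *dnd1*. These permutations exchange libraries freely within a group. When same-numbered libraries were rearranged together, a test added after the data were seen, the exact permutation p was 0.00833, the smallest that 120 rearrangements can give, and 0.125 after adjustment over the 15 pairs, so the relation did not pass with the pairing kept, and a single pair at that smallest p cannot. With group and replicate number both removed r was 0.69. Against the log2 of the library total *nanos3* had an r of 0.58 and *dnd1* of 0.57, neither of which passed (exact permutation p = 0.0857 and 0.157, adjusted p = 0.626 over 8 genes). Without the 2 libraries farthest from the median total these were 0.26 and 0.21. With every library thinned to the smallest total, r between the pair was 0.70, and the part of depth in the relation was not otherwise tested.

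The ratio of counts between genes was also read in each library. Over all libraries *nanos3* made up 41.6% of the counts of the pair, and its share was between 38.0% and 51.2% in spt_cMO libraries and between 32.0% and 43.6% in control libraries. The exact 95% Clopper-Pearson interval of the share, which covers counting error only, held the pooled value in 10 of 10 libraries. For *ddx4* against *dnd1* it did so in 9 of 10, the exception being spt_cMO replicate 1, with 25.3% against a pooled 34.8%. For *ca15b* against *dnd1* the interval held the pooled 48.3% in 5 of 10 libraries: the share of *ca15b* was 33.1% to 53.3% in spt_cMO and 36.1% to 66.8% in control. For *zar1* against *dnd1*, 5 of 10 held the pooled 28.5%, and the share of *zar1* was 16.7% to 60.8% in spt_cMO and 19.3% to 41.3% in control. For *buc* against *zar1* it was 10 of 10, with *buc* at 22.5% to 38.9% in spt_cMO and 18.5% to 38.9% in control, on 15 to 122 counts a library. The intervals are wide at such counts, and the sparse *piwil1* against *zar1*, whose r was -0.18, also reached 10 of 10 with shares of *piwil1* from 3.13% to 33.3%. A count of 10 thus does not show that a ratio was constant.

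**Figure D4:**
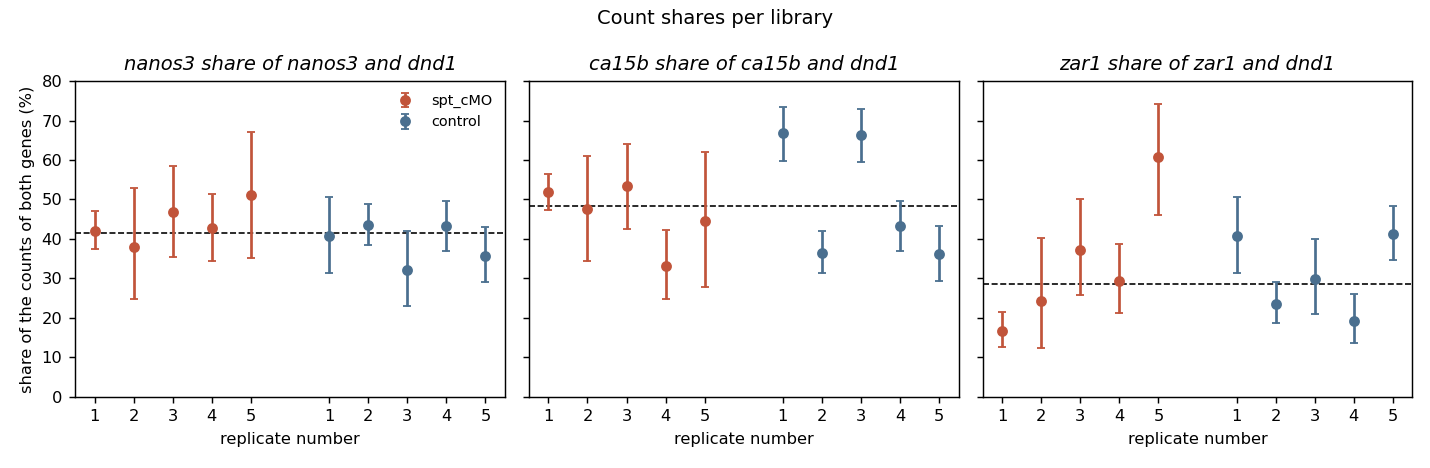
Share (%) of *nanos3*, *ca15b* and *zar1* in their summed counts with *dnd1*, per library, with exact 95% Clopper-Pearson intervals; the dashed line is the share over all libraries. The intervals of *nanos3*, which are wide in the shallow libraries, meet the line in 10 of 10 libraries, those of *ca15b* and *zar1* in 5 of 10 each.

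The other pairs were weaker, and none passed adjustment over the 15 pairs. The helicase gene *ddx4* had an r of 0.63 with *dnd1* and 0.55 with *nanos3* (exact permutation p = 0.0896 and 0.116, adjusted p = 0.327 each). Without spt_cMO replicate 5 and control replicate 2, which lay farthest from the median of *ddx4*, these were 0.25 and 0.29. The size of r thus depends on those libraries. Spearman rho over all 10 libraries was 0.61 with *dnd1* and 0.67 with *nanos3* (exact permutation p = 0.0787 and 0.0537, adjusted p = 0.197 each), which did not pass either. The sparse *dazl* had r of 0.60 with *nanos3*, 0.56 with *dnd1* and 0.46 with *ddx4* (exact permutation p = 0.0999, 0.113 and 0.212).

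The gene *ca15b* went less with the others, with an r of 0.45 with *dnd1*, 0.23 with *nanos3* and 0.16 with *ddx4* (exact permutation p = 0.218, 0.546 and 0.669). In all 3 pairs it was positive within spt_cMO and negative within control. Without spt_cMO replicates 1 and 5 its r with *dnd1* was -0.14.

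In the opposite direction, *zar1* had an r of -0.75 with *dnd1* (exact permutation p = 0.0254, adjusted p = 0.191) and a rho of -0.67. With same-numbered libraries rearranged together, the exact permutation p of that r was 0.0417 (adjusted p = 0.3125). Among the 6569 other records *zar1* ranked 6486 in likeness to *dnd1*. Without spt_cMO replicates 1 and 5 the r was -0.45. Its r was -0.59 with *ddx4*, -0.52 with *ca15b* and -0.49 with *nanos3*, none of which passed (exact permutation p = 0.11, 0.139 and 0.153). With *buc* it was 0.44 (exact permutation p = 0.26), positive within spt_cMO and negative within control.

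**Figure D5:**
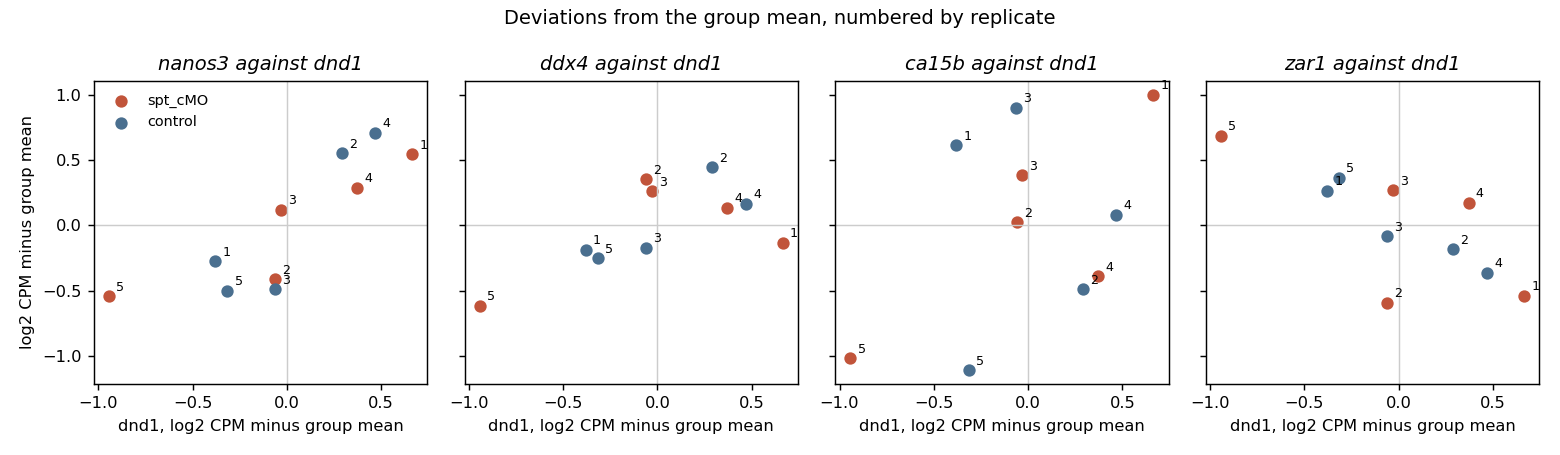
Deviation from the group mean (log2 CPM) of *nanos3*, *ddx4*, *ca15b* and *zar1* on the vertical axes against that of *dnd1* on the horizontal axes; each point is a library, numbered by replicate. The points of *nanos3* rise with *dnd1* (r = 0.84), those of *zar1* run down (r = -0.75), and those of *ca15b* scatter (r = 0.45).

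Each gene was also set against the mean of the other 5 tested genes, standardised, over the 10 libraries. Among 6565 records, of which the other members were left out, *dnd1* ranked 321 (r = 0.59) and *nanos3* 489 (r = 0.53), followed by *ddx4* at 1425 (r = 0.32), *ca15b* at 3531 (r = -0.04), *buc* at 4097 (r = -0.13) and *zar1* at 6319 (r = -0.63). The 10 records most like the mean of all 6 were *rbm28* (r = 0.93), *mettl18* (0.92), *si:ch73-299h12.6* (0.91), *cog4* (0.91), *rpl6* (0.89), *mrps33* (0.88), *nubp1* (0.88), *bzw1a* (0.88), *nkrf* (0.87) and *akap17a* (0.87). None of these 10 stood in a germ line or maternal list, but those lists held only 7 and 18 tested records of 6570, so their absence tells little. Among them are a ribosomal protein gene (*rpl6*), a gene of the mitochondrial ribosome (*mrps33*) and a gene of a Golgi tethering complex (*cog4*). They are the top of 6570 records ranked over 10 libraries, so their r is a description. The mean of all 6 reflects its genes unequally. Its r was 0.815 with *dnd1*, 0.78 with *nanos3*, 0.65 with *ddx4*, 0.36 with *ca15b*, 0.27 with *buc* and -0.36 with *zar1*. Each of these genes is itself part of that mean.

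Other genes of germ plasm and the piRNA pathway were read beside the 8. Of 24 listed genes 16 matched, as 17 records, of which 7 were abundant enough to test and 0 were called in edgeR's quasi-likelihood test, with a median log2 fold change of 0.05. The most abundant was *celf1*, an RNA-binding protein gene that is widely expressed, at 251 CPM ± 57.9 in spt_cMO and 243 CPM ± 36.9 in control (SD, n = 5 each). The chemokine receptor gene *cxcr4b*, which guides migrating germ cells and is also used by somatic cells, averaged 9.36 CPM ± 2.09 and 12.95 CPM ± 3.56 in the same order, with a log2 fold change of -0.40 (SE 0.21, adjusted p = 0.625, edgeR). The piRNA methyltransferase gene *henmt1* averaged 10.5 CPM ± 2.07 in spt_cMO and 9.85 CPM ± 3.21 in control. Their r with the mean of the 6 genes was 0.15 for *celf1*, 0.25 for *cxcr4b* and -0.14 for *henmt1*, and over the 7 tested records it ran from -0.40 to 0.25. The germ plasm genes *tdrd7a* and *gra*, named after their values were seen, had 7 and 49 counts over all 10 libraries.

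Of 29 listed maternal and oocyte genes 28 matched, as 30 records, of which 18 were abundant enough to test and 0 were called by edgeR, with a median log2 fold change of 0.04 and 8 below 0. Their summed level was 573 to 780 CPM in spt_cMO and 765 to 829 CPM in control. The most abundant were the cyclin gene *ccnb1*, at 253 CPM ± 52.6 in spt_cMO and 314 CPM ± 31.4 in control, the pluripotency factor gene *pou5f3*, at 182.5 CPM ± 25.95 and 206.5 CPM ± 30.7, and the RNA-binding protein gene *igf2bp3*, at 42.9 CPM ± 5.85 and 41.7 CPM ± 7.77 (SD, n = 5 each, same order). Both *ccnb1* and *pou5f3* are also made by embryonic cells at this stage. The zona pellucida genes *zp2.1* and *zp3b*, which encode egg coat proteins, were at 23.7 CPM ± 1.35 and 26.8 CPM ± 4.90 in spt_cMO and at 22.8 CPM ± 2.55 and 31.4 CPM ± 3.79 in control. Across libraries, the r of the 18 tested records with the mean of the 6 genes ran from -0.73 for *zp2.2* to 0.77 for *npm2b*, a nucleoplasmin gene of the egg, with 0.68 for *ccnb1* and 0.58 for *zar1l*. In the cell type lists *krt18a.1* of the epidermis list had an r of -0.75 and *msgn1* of the presomitic list -0.72. The egg coat genes and those with an r in the last 2 sentences, other than *ccnb1*, were named after their values were seen, and their r is a description.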

How the data were processed

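RNA of sorted zebrafish cells was measured by CEL-seq in 5 spt_cMO and 5 control libraries. The authors deposited raw read counts per RefSeq record. Per the series' design text, which the labels' protocols accompany, alignment was to the assembly Zv8, by the authors' CEL-seq scripts run in Galaxy, with the aligner, counter and use of strand not given in the sources used here. No molecular identifiers are mentioned, so counts are reads, and intervals cover counting error only. The authors also deposited their own comparison, made with edgeR per the submitters' processing notes, which holds for each record its p-value and false discovery rate, the likelihood ratio (a score), and log2 values of fold change and mean CPM. Its negative fold changes mean lower in spt_cMO, as the counts of these genes show.

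Gene names were taken from RefSeq's table of GRCz12tu, used for nothing else (13986 of 14720 records matched), so no coordinates are given. Counts were tested with edgeR 4.0.16 in R 4.3.3: filterByExpr (minimum count 10, minimum total 15, minimum proportion 0.7), TMM, robust glmQLFit and glmQLFTest, 2-sided, Benjamini-Hochberg over 6570 records, threshold 0.05. DESeq2 1.42.0 was an alternative. Standard errors come from the F statistic. Log2 CPM for correlations used a prior count of 2, and their permutations exchanged libraries within groups. Both procedures were tested on simulated data in which all libraries were independent, so those tests do not cover correlated same-numbered libraries. No 2 of the 45 pairs of libraries agreed within sampling noise (chi-square of at least 6.71 per degree of freedom).

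The labels do not say what a replicate number shares. Over all tested records, deviations of same-numbered libraries correlated at 0.136, 0.251, 0.119, 0.203 and 0.147, each above the 0.1 set for calling numbers paired. By that rule the numbers were paired, but the main test and the permutations within groups left the number out. Fits of the tested genes blocked on the number are given beside them. Permutations that keep the number are given for *nanos3* with *dnd1* and for *zar1* with *dnd1*. After adjustment, no pair of tested genes passed those permutations.

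The 8 genes, the marker lists and the tests were chosen with earlier results of these data known. All 8 genes are named, with the 10 records most like their mean and, from the germ plasm and maternal lists, records called or among the 3 most abundant. Genes named outside this rule are marked as such.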

Additional observations from a re-analysis of the deposited data

Results flagged for a closer look

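In 16 groups of 5 values (8 genes in both groups of libraries), 1 value stood far from the others of its group. The level of *piwil1* in spt_cMO replicate 2 was 2.45 CPM, where the other 4 spt_cMO libraries lay between 0.40 and 0.78 CPM, and the gap took 0.814 of the range, above the critical value of 0.71 for 5 samples. Chance flags about 1 in 20 groups. The value rests on 5 counts.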

How the results depend on the processing

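The 6 tested genes gave 0 calls with the replicate block, other scaling factors, no filter, DESeq2, thinning (5 genes tested, since *buc* fell under the filter) and without each library. Among settings added after the data were seen, 1 gene, *ca15b*, was called under the block with the likelihood ratio test (log2 fold change -0.65), and under the block without number 1 (-0.80, adjusted p = 0.0493, edgeR) or number 2 (-0.75); it was not under the block with DESeq2 or without numbers 3, 4 or 5. Calls over all tested records numbered 117 of 6570, and 181 of 6570 with the replicate block. Under the block, the likelihood ratio test called 239 of 6570. The blocked quasi-likelihood test called 147 of 6489 without number 1 and 199 of 6557 without number 2. Calls without the block numbered 84 to 126 without each library. The log2 fold change of *nanos3*, -0.10 with all libraries, lay between -0.29 and 0.10 without each library, and turned to 0.01 without spt_cMO replicate 5, 0.07 without control replicate 2, 0.10 without control replicate 4, and under the block to 0.13 without number 2 and 0.052 without number 4. In the other 5 genes the sign held in every setting. Without each library, *ca15b* ranged from -0.95 to -0.26, *dnd1* from -0.53 to -0.13, *buc* from -0.57 to -0.04, *zar1* from -0.45 to -0.07 and *ddx4* from -0.45 to -0.22. Under the block without number 1, *zar1* was at -0.015. Under the block without number 1, *dnd1* was at -0.66 (adjusted p = 0.0593, edgeR). The cause was not tested. The r of *nanos3* and *dnd1* was 0.69 to 0.89 over all settings, and 0.81 to 0.89 without each library. The median r of the 15 pairs ran from -0.24 to 0.09 without each library and was 0.05 with group means left in. The replicate block changed no other call of the 8 genes. Depth limits *piwil1*, *dazl* and *buc*, with 59, 66 and 173 counts in all.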
